A study of Mus musculus with 2 samples.

Results

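The genes described here were S100a4, S100a6, S100a10, S100a11, Lgals1, Lgals3, Anxa1, Anxa2 and Vim, 9 of the 32285 genes in the deposited tables, chosen by name as S100, galectin and annexin genes plus vimentin. They were followed in CD8+ tumor-infiltrating lymphocytes (TIL), the T cells that enter a tumor and can kill its cells. The TIL came from transplanted B16 F0 tumors, a mouse melanoma line, in male C57BL/6 mice aged 16 weeks. Lean mice were kept on normal chow and obese mice on a western diet, and the lean and the obese sample are each 1 library of sorted cells. Sorting was by CD8 staining after enrichment with magnetic beads, and RNA was captured in droplets with the 10x Genomics chemistry that reads the 3′ end of transcripts. How many mice went into each library is not given in the sources used here. With 1 library per phenotype there is no replicate, so no test between lean and obese was possible, and diet, mouse and library cannot be told apart.

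S100 proteins are small proteins, most of which, but not S100a10, change shape on binding calcium and then dock onto other proteins. S100a4 is known to bind nonmuscle myosin, S100a10 forms a complex with annexin A2 at the inner face of the plasma membrane, and S100a11 binds annexin A1. Annexins bind negatively charged membrane lipids when calcium is present and take part in membrane repair and vesicle traffic. Galectin-1 (Lgals1) and galectin-3 (Lgals3) bind galactose-containing sugars on cell surface proteins, and both are known as regulators of T cell signaling and survival. Vimentin (Vim) is the intermediate filament protein of lymphocytes. In T cells, transcripts of many of these genes are known to be low before antigen encounter and high in effector and memory cells.

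The 4 S100 genes lie on chromosome 3 of GRCm38, the assembly also called mm10, in the S100 gene cluster. S100a4 (ENSMUSG00000001020) spans 90603771 to 90606045 and S100a6 (ENSMUSG00000001025) spans 90612882 to 90624181, with 6.84 kb between them. S100a11 (93520488 to 93526287) and S100a10 (93555080 to 93564643) are 28.8 kb from each other and 2896 kb beyond S100a6. Lgals1 lies on chromosome 15 (78926725 to 78930465), Lgals3 on chromosome 14 (47367751 to 47386160), Anxa2 on chromosome 9 (69453620 to 69491795) and Vim on chromosome 2 (13573927 to 13582826), all on the plus strand like the S100 genes. Anxa1 lies on the minus strand of chromosome 19 (20373428 to 20390944). All 9 are annotated as protein coding. The annotation also places Gm42674 on the strand of S100a4 within its span, so reads of S100a4 and of that gene may not be separable.

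RefSeq promoter sequence of the GRCm38.p6 assembly was matched for 7 of the 9 genes. Upstream sequence is shown for S100a4 and S100a6, neighbors that were higher together in obese memory-like cells, and for Lgals3 and Anxa2, which were lower together in obese effector and cycling cells. Each begins 250 bases before the RefSeq start and ends at that start or just before the first annotated exon. All 4 are on the plus strand, at chr3:90603520-90603769, chr3:90612644-90612881, chr14:47373610-47373812 and chr9:69453433-69453619. The RefSeq starts of S100a6, Lgals3 and Anxa2 lie inside the annotated spans of these genes. Capitals mark matches, on either strand, to 3 motifs that do not overlap each other here. The AP-1 site was searched as TGANTCA. The TATA box was searched as TATAAA. The GC box was searched as GGGCGG.
S100a4: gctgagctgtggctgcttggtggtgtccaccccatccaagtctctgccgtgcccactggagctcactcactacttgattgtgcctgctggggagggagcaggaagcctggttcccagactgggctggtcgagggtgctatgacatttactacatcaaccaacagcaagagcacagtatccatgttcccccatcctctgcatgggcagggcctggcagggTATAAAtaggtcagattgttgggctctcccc
S100a6: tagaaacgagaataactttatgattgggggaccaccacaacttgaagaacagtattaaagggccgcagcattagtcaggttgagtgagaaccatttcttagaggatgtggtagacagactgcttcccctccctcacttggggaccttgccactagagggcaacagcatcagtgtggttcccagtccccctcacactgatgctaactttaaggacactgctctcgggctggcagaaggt
Lgals3: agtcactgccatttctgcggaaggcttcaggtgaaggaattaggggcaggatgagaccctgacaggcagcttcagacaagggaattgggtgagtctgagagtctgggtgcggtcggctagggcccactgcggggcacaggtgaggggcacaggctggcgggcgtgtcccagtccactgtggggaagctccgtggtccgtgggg
Anxa2: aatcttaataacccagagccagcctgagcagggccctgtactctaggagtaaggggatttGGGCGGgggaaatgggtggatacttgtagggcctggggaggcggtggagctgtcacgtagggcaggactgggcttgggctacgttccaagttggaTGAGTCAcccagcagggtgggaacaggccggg

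The S100a4 stretch holds a TATA box 31 bases before the start, and the S100a6 and Lgals3 stretches hold none of the 3 motifs. The Anxa2 stretch holds an AP-1 match 95 bases and a GC box 190 bases before the start. Over the whole windows of 250 bases, the AP-1 letters were found in 2 of the 7 matched genes (S100a11 and Anxa2) and in 6.75% of 32851 RefSeq promoters, the TATA box in 4 of 7 and 12.4%, and the GC box in 3 of 7 and 32.7%. S100a4 and S100a6 shared none of these matches. Lgals3, with a GC box 7 bases before the start, and Anxa2 both held a GC box outside the stretches shown. Those GC boxes lie past the start of an annotated exon.

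Of 5320 deposited cells, 4745 passed the filters, 2456 in the lean library with 27815785 unique molecular identifiers (UMIs, each standing for 1 captured RNA molecule) and 2289 in the obese library with 28705830. The median cell held 7958 UMIs in the lean and 9103 in the obese library. A Cd3 UMI was seen in 98.6% and 98.4% of cells, and a Cd8a or Cd8b1 UMI in 96.1% and 96.7%. Among markers of other cells, the 5 for melanoma summed to 19 UMIs in the lean and 29 UMIs in the obese library, and only Tyr had none. The 4 for neutrophils summed to 13 and 4 UMIs, with S100a9 at 0 in both libraries. The 7 macrophage and monocyte markers summed to 24.4 CPM (counts of a gene per 1000000 UMIs) in the lean and 24.7 CPM in the obese library. The 6 dendritic markers summed to 23.8 and 73.3 CPM. Of all cell barcodes kept, 2 were shared by the libraries.

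Cells were sorted into gates by genes other than the 9 described. Cycling cells held UMIs of at least 4 of 16 cell cycle genes. Effector cells held UMIs of Gzmb or Prf1, counted as a sum (granzyme B and perforin, proteins of cytotoxic granules). Memory-like cells held Ccl5 with at least 2 of 6 memory genes, among them Il7r, Tcf7, Cxcr3, Ly6c2 and Gzmk. Naive-like cells held little Ccl5 with at least 2 of 4 naive genes, among them Ccr7, Lef1 and Tcf7. The naive-like gate held 214 lean and 252 obese cells, the memory-like gate 597 and 645, the effector gate 737 and 458, and the cycling gate 604 and 671, with 304 and 263 cells outside the gates. Of the 5 check markers for naive-like cells, Dapl1 (531 and 552 CPM, against at most 136 CPM in any other gate), Igfbp4 and Il6ra were highest there in both libraries, but in the lean library Klf2 (1318 against 1411 CPM) and S1pr1 (96.8 against 116 CPM) were higher in memory-like cells. Markers not used for gating set apart effector cells (Havcr2 158 and 73.1 CPM against at most 8.73 CPM in the naive-like and memory-like gates) from those gates, and cycling cells (Stmn1 824 and 902 CPM against at most 46.8 CPM elsewhere) from the rest. The checks for memory-like cells did not set them apart: Eomes was highest there in both libraries, but Gzma, Il2rb, Klrd1 and Cxcr6 were highest in the effector gate, so the memory-like gate is known by its rule rather than by these genes. Gzmb itself was 1969 CPM in lean and 1124 CPM in obese effector cells, and Prf1 599 and 270 CPM, so the gate's share of cells (30.01% lean, 20.01% obese) can be set by the level of the genes that cut it.

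All 9 genes were lowest in the naive-like gate and higher in the effector and cycling gates, in both libraries. Summed UMIs are given as CPM of all UMIs in the same cells. S100a4 went from 74.0 CPM in naive-like to 379 CPM in memory-like and 2372 CPM in effector cells of the lean library, with 1875 CPM in cycling cells. In the obese library the same 4 levels were 56.0, 835, 2343 and 1717 CPM. S100a4 was thus within counting error of equal in effector cells of both libraries, and differed most in the memory-like gate. S100a6, or calcyclin, measured 235, 1065, 3524 and 2010 CPM in lean naive-like, memory-like, effector and cycling cells, and 162, 1637, 3238 and 1598 CPM in obese cells. S100a6 was lower in cycling than in effector cells, with a log2 ratio of -0.81 (95% interval -0.84 to -0.78) in lean and -1.02 (-1.05 to -0.99) in obese cells. Of the 9 genes, 2 (Lgals3 and Anxa1) were lower by a log2 ratio of 1 in both libraries for cycling over effector cells and 0 were higher. The background was 1.73% of 2608 genes lower and 5.33% higher. Lgals3 was among the 8 of 9 with enough CPM to be set beside it, and Anxa1 was not.

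S100a10 and S100a11, the partners of annexin A2 and annexin A1, covered a narrower range. S100a10 measured 516, 779, 1690 and 1405 CPM in lean and 558, 951, 1744 and 1433 CPM in obese naive-like, memory-like, effector and cycling cells. S100a11 measured 218, 338, 1121 and 925 CPM in lean and 238, 422, 1031 and 828 CPM in obese cells. Both kept the order naive-like, memory-like, cycling, effector, and neighbors in that order were separated by more than their counting intervals. Among the galectins and S100 genes of the 9, only Lgals1 had its highest level in cycling cells, at 2750 CPM in lean and 2291 CPM in obese cells, against 2448 and 1864 CPM in effector cells. It measured 396 and 282 CPM in naive-like and 576 and 665 CPM in memory-like cells.

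Lgals3 was close to absent from naive-like cells, with 13 UMIs (7.40 CPM) in the lean and 14 UMIs (6.70 CPM) in the obese library. It reached 80.4 and 77.1 CPM in memory-like cells, 605 and 308 CPM in effector cells and 253 and 128 CPM in cycling cells. Effector cells therefore held the most Lgals3 in both libraries, and cycling cells had a log2 ratio of -1.26 to effector cells in each. Anxa2 measured 97.4, 151, 727 and 802 CPM in lean and 59.3, 143, 470 and 565 CPM in obese naive-like, memory-like, effector and cycling cells. Like Lgals1, Anxa2 peaked in cycling cells. Anxa1 was scarce throughout, with 328 UMIs in all lean and 198 in all obese cells, and at most 23.0 CPM, in lean effector cells. In memory-like against naive-like cells it had 8 against 2 UMIs in lean (a log2 ratio of 0.74, -1.59 to 4.01) and 27 against 3 UMIs in obese cells (1.81, 0.10 to 4.17). Vim had the smallest range, at 515, 651, 1174 and 1165 CPM in lean and 399, 771, 1157 and 1168 CPM in obese cells, and its effector and cycling levels could not be told apart by counting error in either library.

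**Figure D1:**
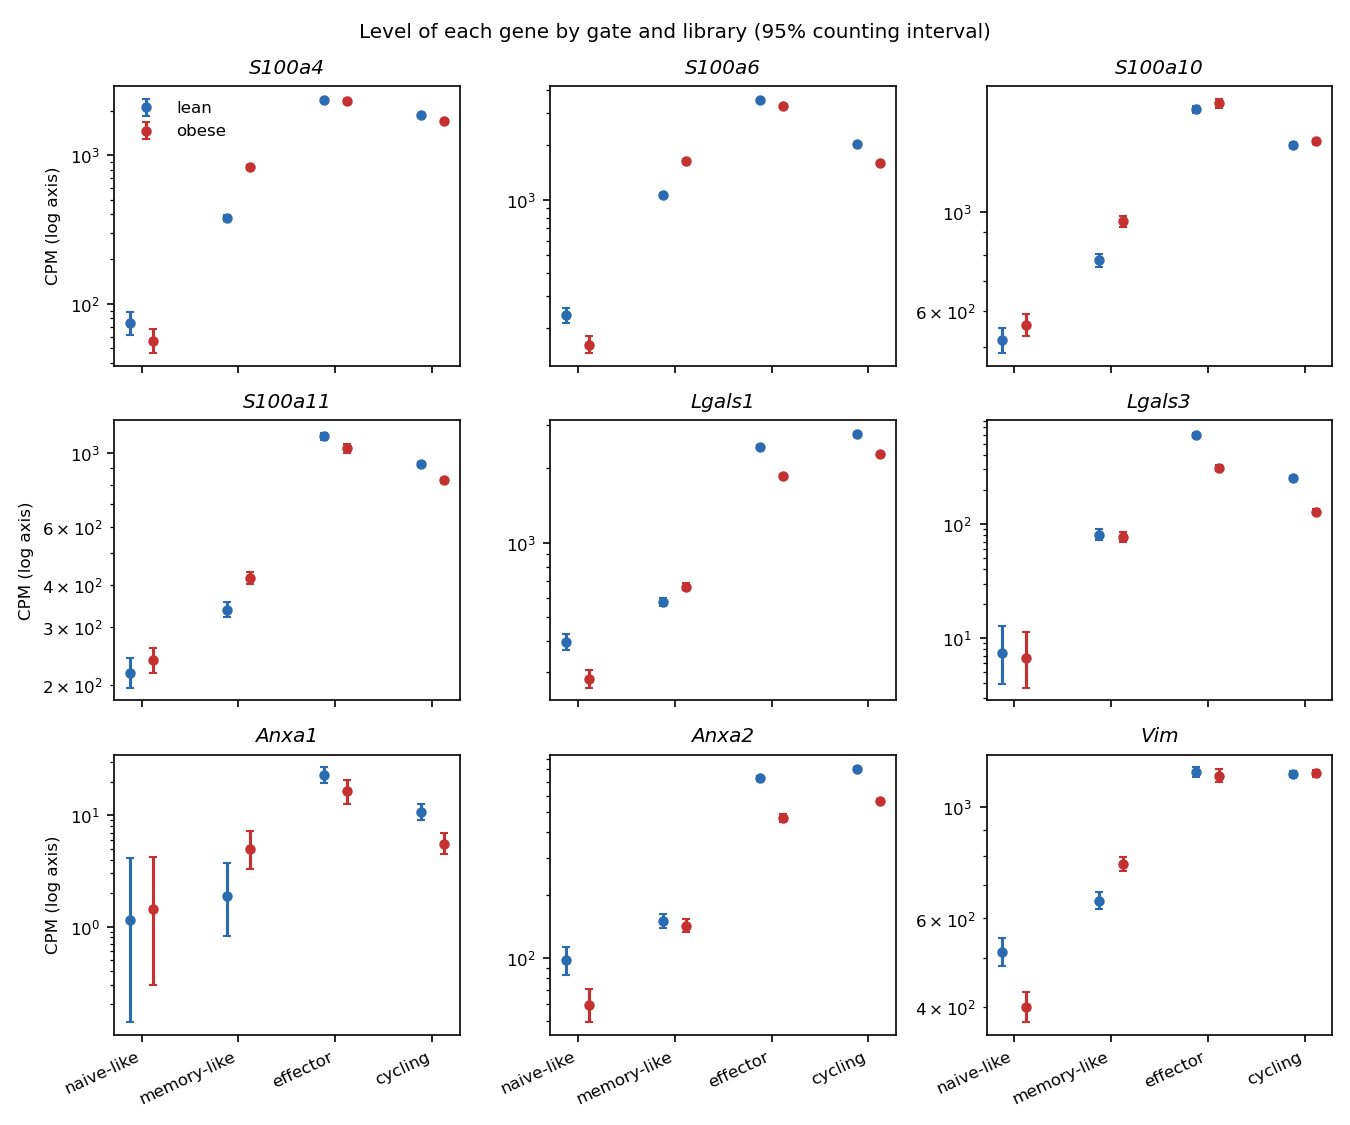
Level of each of the 9 genes, in CPM on a log axis with its own range per panel, by gate on the x axis, in the lean (blue) and obese (red) library. Points are sums over the cells of a gate and bars are exact Poisson 95% intervals, counting error only. S100a4 sits at 379 CPM in lean and 835 CPM in obese memory-like cells and at 2372 and 2343 CPM in effector cells.

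Against naive-like cells, effector cells were higher by at least a log2 ratio of 1 in both libraries for 9 of 9 genes. The background for this call was 8.65% of the 2335 genes with enough UMIs, with 1.8% lower, and 7 of the 9 had enough (all but Lgals3 and Anxa1). The log2 ratios were 5.001 in lean and 5.39 in obese cells for S100a4, 3.91 and 4.32 for S100a6, 2.90 and 2.98 for Anxa2, and 1.19 and 1.53 for Vim. S100a4 and S100a6 thus spanned a far wider range than Vim, S100a10 (1.71 and 1.64) or S100a11 (2.36 and 2.12). The median over the 9 genes, Lgals3 and Anxa1 included, was 2.90 and 2.98. Over all genes with enough UMIs, which leave out Lgals3 and Anxa1, it was 0.33 and 0.39, so the 2 medians rest on unlike limits. For cycling over naive-like cells the count was also 9 of 9, and the same 7 had enough UMIs for the background of 17.6% higher and 4.5% lower.

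The step from naive-like to memory-like cells was taken by fewer genes. A log2 ratio of at least 1 in both libraries was reached by 3 of 9 (S100a4, S100a6 and Lgals3). Of these, S100a4 and S100a6 were among the 7 of 9 with enough UMIs for the background of 1.1% higher and 0.287% lower. Lgals3, with 13 lean and 14 obese naive-like UMIs, was not. S100a4 had a ratio of 2.36 (2.10 to 2.62) in lean and 3.90 (3.63 to 4.18) in obese cells, and S100a6 of 2.18 (2.04 to 2.33) and 3.34 (3.18 to 3.50). From memory-like to effector cells, 6 of 9 reached a log2 ratio of 1 in both libraries. Among these 6, Anxa1 had 8 lean memory-like UMIs, too few for the background of 3.03% higher and 1.01% lower, for which 8 of the 9 genes had enough. The ratio of effector to memory-like cells was 2.65 in lean against 1.49 in obese cells for S100a4, 2.09 against 1.49 for Lgals1 and 2.91 against 1.997 for Lgals3. This ratio was smaller in obese cells for each of the 9 genes. The share of all genes with a smaller ratio was not counted. Their median, over 2380 genes with enough UMIs, was also smaller in obese cells, at 0.22 against 0.27 in lean cells. For S100a4 the memory-like level was the one that differed between libraries, and for Lgals3 the effector level.

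Shares of cells were compared after each cell was thinned at random to 2000 UMIs, which left out 7 lean and 20 obese memory-like, 30 and 12 effector and 1 and 4 cycling cells with fewer. An S100a4 UMI was then seen in 6.07% of lean and 6.75% of obese naive-like cells, 24.9% and 44.8% of memory-like, 80.3% and 83.0% of effector, and 81.9% and 81.0% of cycling cells. Without thinning the memory-like shares were 36.2% and 60.3%. S100a6 was seen in 58.6% (54.6 to 62.7) of lean and 68.8% (65.0 to 72.4) of obese memory-like cells, and in 87.8% and 87.2% of effector cells. S100a10 was the most widely seen of the 9 in naive-like cells, in 56.1% and 61.5% of them. Lgals3 was seen in 49.9% (46.2 to 53.7) of lean and 32.3% (28.0 to 36.8) of obese effector cells, and Anxa2 in 57.6% (53.8 to 61.2) and 45.1% (40.4 to 49.8).

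Effector cells tended to hold most of the 9 transcripts at once. At 2000 UMIs the median effector cell showed 7 of the 9 genes in the lean and 6 in the obese library, the median cycling cell 6 in both, the median memory-like cell 3 and 4, and the median naive-like cell 2 in both. Cells with 6 or more of the 9 made up 13.9% (11.2 to 16.96) of lean and 25.3% (21.9 to 28.9) of obese memory-like cells. In effector cells the order was the other way, with 70.9% (67.4 to 74.2) in lean and 64.3% (59.7 to 68.8) in obese cells.

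**Figure D2:**
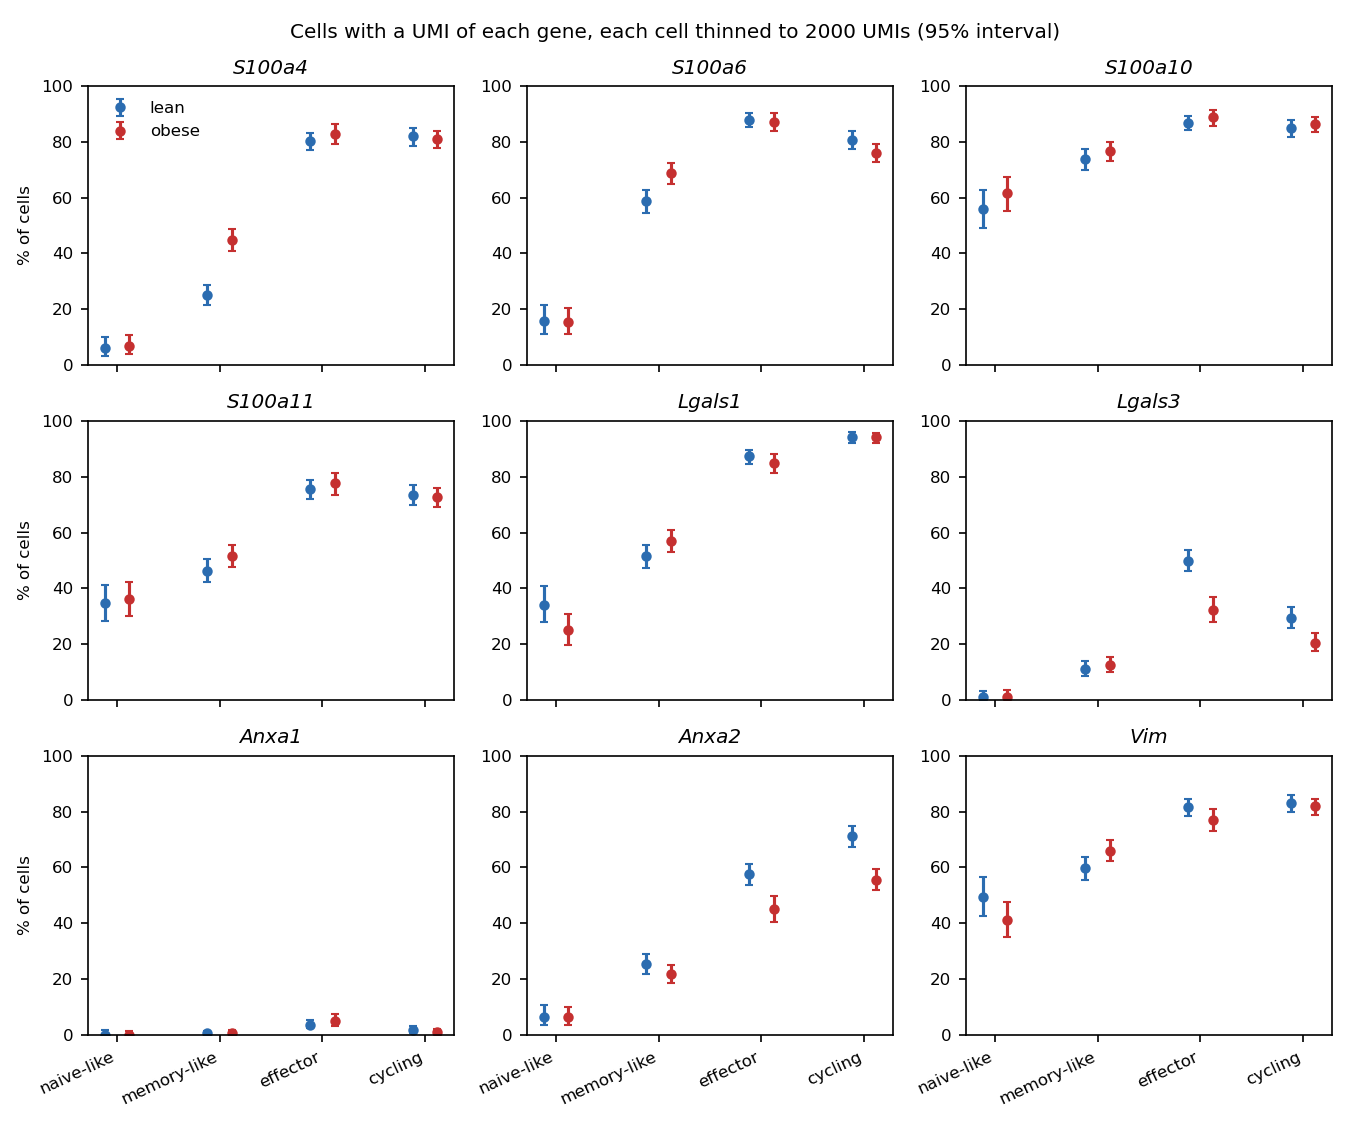
Percent of cells with at least 1 UMI of each gene (y axis, 0 to 100%), by gate on the x axis, with each cell thinned to 2000 UMIs, in the lean (blue) and obese (red) library. Bars are exact binomial 95% intervals. S100a4 was seen in 24.9% of lean and 44.8% of obese memory-like cells, and Lgals3 in 49.9% and 32.3% of effector cells.

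Free RNA in droplets can place UMIs in cells that do not express a gene, so naive-like levels were set beside those of effector genes. Gzmc, Gzmf and Havcr2, which naive T cells should lack, stood in naive-like cells at 0% to 0.96% of their effector level, and Ccl3 at 2.67% (2.09 to 3.37) in lean and 0.93% (0.55 to 1.46) in obese cells. Lag3, also on that list, stood at 15.8% and 22.6% and gave no floor. Lgals3 stood at 1.22% (0.65 to 2.09) and 2.18% (1.19 to 3.65) and S100a4 at 3.12% (2.61 to 3.71) in lean cells, at or below Ccl3 within counting error, so these naive-like values are not read as expression by the gate, although S100a4 lay above Gzmf and Havcr2. Whether they come from free RNA was not tested. S100a4 in obese cells stood at 2.39% (1.98 to 2.86), above Ccl3, and Anxa1 had 2 and 3 naive-like UMIs. S100a6 stood at 6.66% and 5.01%. S100a10 (30.5% and 32.0%), Vim (43.9% and 34.5%), S100a11 (19.5% and 23.1%), Lgals1 (16.2% and 15.1%) and Anxa2 (13.4% and 12.6%) stood well above it. S100a4 and S100a6 UMIs in the naive-like gate were also held by few cells, with the top 10 cells carrying 73.8% of the S100a4 UMIs in the lean and 70.9% in the obese gate, and 64.1% and 57.5% of those of S100a6.

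Over all cells, most of the 9 genes were lower in the obese library. Lgals3 was 289 CPM in the lean and 135 CPM in the obese library, a log2 ratio of obese over lean of -1.10 (-1.15 to -1.04). Anxa2 measured 618 and 421 CPM (-0.55, -0.59 to -0.52) and Anxa1 11.8 and 6.90 CPM (-0.77, -1.04 to -0.51). These 3 were past a log2 ratio of 0.5, of which Lgals3 and Anxa2 had enough UMIs and CPM to be set beside the background of 1.62% of 2526 genes lower and 1.9% higher. Lgals1 measured 2114 and 1718 CPM (-0.30), S100a6 2076 and 1739 CPM (-0.26), S100a11 815 and 728 CPM (-0.16) and S100a4 1598 and 1502 CPM (-0.089). S100a10 (1299 and 1307 CPM) and Vim (1020 and 1017 CPM) were within counting error of equal. The 9 genes together made up 0.984% of lean and 0.858% of obese UMIs. These sums mix gates of different size, and with the 4 gates weighted alike the S100a4 ratio turned to 0.075, so the gates are given next.

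Memory-like cells went the other way from the sum. S100a4 was 379 CPM (361 to 398) in the lean and 835 CPM (810 to 859) in the obese library, 2.20-fold higher in obese cells, a log2 ratio of 1.14 (1.06 to 1.22). S100a6 was 1.54-fold higher (0.62, 0.57 to 0.67), and Anxa1 was higher at 27 against 8 UMIs (1.40, 0.22 to 2.75). Past a log2 ratio of 0.5 were these 3 of 9, with 2 of them (S100a4 and S100a6) measured well enough to be set beside a background of 3.93% of 2262 genes higher and 1.11% lower. Smaller ratios were those of S100a11 (338 and 422 CPM, 0.32), S100a10 (779 and 951 CPM, 0.29), Vim (651 and 771 CPM, 0.24) and Lgals1 (576 and 665 CPM, 0.21), while all genes measured had a median of 0.077. The Lgals1 ratio was 0.030 when cells were thinned to 2000 UMIs. Lgals3 (80.4 and 77.1 CPM, -0.061, -0.27 to 0.15) and Anxa2 (151 and 143 CPM, -0.074, -0.23 to 0.079) were not higher. The 9 genes took 0.402% of UMIs in lean and 0.550% in obese memory-like cells.

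The markers of other cells moved with this gate. The 7 macrophage and monocyte markers summed to 36 UMIs (8.54 CPM, with 3 of 7 at 0) in lean and 166 UMIs (30.8 CPM, none at 0) in obese memory-like cells, and the 6 dendritic markers to 10 UMIs (3 of 6 at 0) and 529 UMIs, in 8 and 14 cells. Without the 5 lean and 17 obese cells holding 2 or more UMIs of another lineage, the S100a4 ratio was 1.10 (1.02 to 1.18) and the S100a6 ratio 0.61 (0.55 to 0.66), and that of Lgals3 was -0.17 (-0.39 to 0.047). The gate's own state also differed, with Tcf7 at 192 CPM in lean and 130 CPM in obese, Gzmk at 30.4 and 106 CPM and Ccl3 at 68.8 and 145 CPM, and with a median of 6997 UMIs per lean and 8212 per obese cell. Their part in the S100a4 ratio was not tested.

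**Figure D3:**
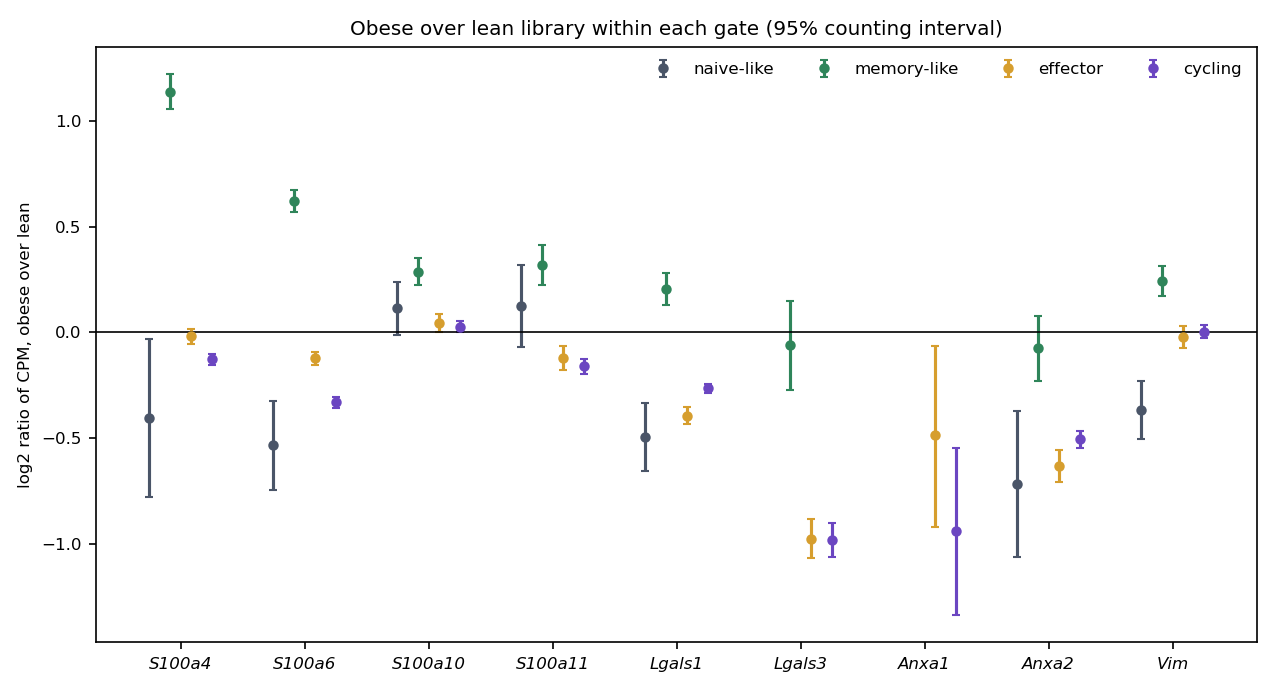
Log2 ratio of CPM in the obese over the lean library (y axis) for each gene (x axis), within the naive-like, memory-like, effector and cycling gates (colors). Bars are exact conditional binomial 95% intervals, counting error only, and ratios with under 20 UMIs in a library are not drawn. S100a4 and S100a6 lie at 1.14 and 0.62 in memory-like cells. In the other gates both points lie below 0, but the interval of S100a4 in effector cells includes 0. Lgals3 lies at -0.98 in effector and cycling cells.

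Memory-like cells that held S100a4 held more of most other members as well. At 2000 UMIs, 147 of 590 lean and 280 of 625 obese memory-like cells had an S100a4 UMI. S100a6 was 2306 CPM in S100a4-holding against 716 CPM in other cells of the lean library, and 2504 against 848 CPM in the obese library. Lgals1 was 1133 against 398 CPM in lean and 882 against 359 CPM in obese cells, and Lgals3 330 against 33.9 CPM and 155 against 34.8 CPM. Anxa2 intervals overlapped in lean cells, at 207 CPM (159 to 267) against 156 CPM (131 to 184). Anxa1 had too few UMIs to tell, with 1 against 2 in lean and 3 against 2 in obese cells. Itgb1, an integrin of antigen-experienced T cells, was 687 against 201 CPM in lean and 509 against 322 CPM in obese cells, while Ccr7, a chemokine receptor of naive and central memory T cells, was 40.8 against 152 CPM and 37.5 against 104 CPM. Not every other gene looked at split this way: Ly6c2 was 1221 against 1168 CPM in lean and 1223 against 1177 CPM in obese cells. S1pr1 was 133 against 133 CPM in lean and 64.3 against 130 CPM in obese cells. Lef1 and Eomes intervals overlapped in both libraries, and Il7r intervals in lean cells. Cxcr6 split as Itgb1 did, at 252 against 44.0 CPM and 243 against 82.6 CPM. Tcf7 split as Ccr7 did, at 119 against 218 CPM and 85.7 against 159 CPM. Within memory-like cells, the Spearman correlation of S100a4 and S100a6 UMIs was 0.44 over 590 lean and 0.51 over 625 obese cells. These cells share a library and carry few UMIs per gene, so the values are descriptions.

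In the effector gate, the galectins and Anxa2 were lower in the obese library while S100a4, S100a10 and Vim were nearly level. Lgals3 was 605 CPM (587 to 624) in lean and 308 CPM (291 to 325) in obese cells, a log2 ratio of -0.98 (-1.07 to -0.88). Anxa2 was 727 CPM (707 to 748) and 470 CPM (449 to 491), a ratio of -0.63 (-0.71 to -0.55), and Lgals1 was 2448 and 1864 CPM (-0.39, -0.43 to -0.35). Lgals3 and Anxa2 were the 2 of 9 past a log2 ratio of 0.5, beside a background of 2.91% of 2581 genes lower and 6.16% higher. S100a6 (-0.12), S100a11 (-0.12) and Anxa1 (154 and 68 UMIs, -0.48, -0.92 to -0.064) were lower by less or on few UMIs. S100a4 was 2372 and 2343 CPM (-0.018, -0.054 to 0.019), Vim 1174 and 1157 CPM (-0.021, -0.073 to 0.031) and S100a10 1690 and 1744 CPM (0.045, 0.0023 to 0.088). Macrophage and monocyte markers summed to 18.7 and 20.6 CPM in this gate, and without the 26 lean and 25 obese cells with 2 or more UMIs of another lineage the Lgals3 ratio was -0.95 and that of Anxa2 -0.66. Anxa2 was no longer past 0.5 with stricter gates (-0.35) or with gates cut at 2000 UMIs by other limits (-0.47).

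In the cycling gate, Lgals3, Anxa1 and Anxa2 had the lowest ratios. Lgals3 was 253 and 128 CPM (-0.98, -1.06 to -0.90), Anxa2 802 and 565 CPM (-0.51, -0.55 to -0.46), and Anxa1 147 and 87 UMIs (-0.94, -1.34 to -0.55). These 3 of 9 were past a log2 ratio of 0.5, of which Lgals3 and Anxa2 had enough CPM for the background of 2.24% of 2629 genes lower and 1.98% higher. Anxa2 lay close to 0.5, at -0.49 with mitochondrial and ribosomal protein genes taken out of the total and -0.48 as a mean over cells, and Anxa1 was -0.49 as a mean over cells. S100a6 (-0.33), Lgals1 (-0.26), S100a11 (-0.16) and S100a4 (-0.13) were lower by smaller amounts, and S100a10 (0.028) and Vim (0.0040) were nearly level. Effector and cycling cells are separate cells of the same libraries, so this is no independent measurement of the phenotype.

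In naive-like cells, where levels were low, Anxa2 was 97.4 CPM (83.4 to 113) in lean and 59.3 CPM (49.3 to 70.7) in obese cells, a log2 ratio of -0.72 (-1.06 to -0.37). S100a6 was lower at 412 against 339 UMIs (-0.53, -0.74 to -0.32), and Lgals1 at 696 against 589 UMIs (-0.49, -0.65 to -0.33). Vim was 515 and 399 CPM (-0.37, -0.50 to -0.23). Past a log2 ratio of 0.5 were 2 of 9 (Anxa2 and S100a6), with a background of 3.39% of 2122 genes lower and 5.84% higher. Neither stayed past 0.5 when cells were thinned to 2000 UMIs, where Anxa2 was -0.11 and S100a6 -0.11. With stricter cycling, effector and Ccl5 limits, which can only add cells to the naive-like gate, they were -0.33 and -0.29, also not past 0.5. With looser limits, which can only take cells out of it, Anxa2 was -0.92 and S100a6 -0.70. With gates cut at 2000 UMIs, which also changed the limits of each gate, S100a6 was -0.0051 and Anxa2 -1.34. S100a10 (0.11, -0.013 to 0.24) and S100a11 (0.12, -0.071 to 0.32) were within counting error of equal, and Lgals3 and Anxa1 had too few UMIs for a ratio. The top 10 cells carried 59.6% of lean and 46.8% of obese Anxa2 UMIs in this gate. With each cell weighted alike the median ratio of the 9 genes was -0.18 rather than -0.37. The gene at the median was then S100a4 instead of Vim. Anxa2 (-0.76), S100a6 (-0.70), Lgals1 (-0.57) and Vim (-0.49) were lower still with cells weighted alike, while S100a4 moved from -0.40 to -0.18.

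Most relatives outside the 9 genes stayed under 50 CPM over all cells. Under 50 CPM is not silent: Anxa11 (47.9 CPM in lean and 34.1 CPM in obese cells) and Lgals9 (43.3 and 46.1 CPM) were above the member Anxa1 (11.8 and 6.90 CPM). Of 14 genes listed as other S100 genes, 1 reached 50 CPM, S100a13, at 351 CPM in lean and 319 CPM in obese cells (-0.14, -0.18 to -0.095). The 14 include S100pbp, the gene of an S100 binding protein, which is counted again among the partners below. Of 7 other galectin genes including the galectin-3 ligand Lgals3bp, only Lgals3bp reached 50 CPM over all cells, at 55.4 and 57.1 CPM (0.044, -0.057 to 0.15). Lgals3bp was thus within counting error of equal while Lgals3 was lower in obese cells. Of 10 other annexins, Anxa5 was 78.2 and 66.3 CPM (-0.24) and Anxa6 195 and 213 CPM (0.13). Anxa6 resembled the S100 genes in memory-like cells, where it was 131 and 178 CPM (0.45, 0.29 to 0.60). It was also higher in obese effector (0.19, 0.075 to 0.29) and cycling cells (0.15, 0.079 to 0.22), where S100a4, S100a6 and S100a11 were not. Anxa11 resembled Anxa2 in effector cells, at 62.7 and 41.9 CPM (-0.58, -0.85 to -0.32).

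Of 11 partners and ligands of the 9 gene products, 7 reached 50 CPM over all cells in 1 library or the other. Ahnak, a giant scaffold protein bound by the S100a10 and annexin A2 complex, was 420 and 349 CPM over all cells (-0.27, -0.30 to -0.23), with -0.45 in naive-like, 0.16 in memory-like, -0.14 in effector and -0.27 in cycling cells, the signs that S100a6 also had. Spn (CD43), a sialoglycoprotein that galectin-1 binds, was 45.3 and 70.8 CPM in memory-like cells (0.64, 0.39 to 0.90) and level in effector cells (0.076, -0.10 to 0.25). Plp2, a membrane protein, was 62.1 and 41.9 CPM over all cells (-0.57, -0.67 to -0.46). Ptprc (CD45), another galectin-1 ligand, was 602 and 619 CPM (0.040).

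Cytoskeleton and activation genes that often accompany the 9 in T cells did not follow a single direction. Of 17, 15 reached 50 CPM over all cells, and their median log2 ratio was 0.057, beside 0.019 over all genes measured. Beyond counting error, 9 of the 15 were higher in obese cells and 4 lower. Among those with 50 CPM in a gate, 9 were higher and 1 lower in memory-like cells. The counts were 10 and 4 in effector, 8 and 5 in cycling and 3 and 3 in naive-like cells. Their median in memory-like cells was 0.13, beside 0.077 over all genes measured. Itgb1 was 211 and 308 CPM (0.55, 0.50 to 0.59) and Crip1, a small LIM protein, 1077 and 1385 CPM (0.36, 0.34 to 0.38), both higher in obese cells in all 4 gates. Capg, an actin-capping protein, was 240 and 159 CPM (-0.59, -0.65 to -0.54), with -0.60 in effector and -0.56 in cycling but 0.36 (0.11 to 0.61) in memory-like cells. Tmsb10, a thymosin that binds actin, was 9326 and 7915 CPM (-0.24).

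The genes most like the 9 were sought among 3083 other genes with at least 50 CPM in any of the 8 sums of gate and library, by the Pearson correlation of log2(CPM + 1). For the mean of the 9, the closest were Itgb2 (0.997), the beta chain of LFA-1, Efhd2 (0.996), a calcium-binding actin regulator, Gng2 (0.995), Entpd1 (0.994), the ectonucleotidase CD39, and Slc2a3 (0.994), a glucose transporter. Serpina3g (0.997) and Ifng (0.992) were among the 3 closest to S100a4. Serpina3g was 67.4 CPM in lean and 129 CPM in obese memory-like cells, and Ifng 189 and 367 CPM, values that are part of the sums that chose these genes. Pglyrp1 (0.999) was closest to Anxa2, Gna15 (0.996) to Lgals3, Dok2 (0.997) to S100a6 and Esyt1 (0.998) to Vim. Among the 9 themselves, the closest pairs were Lgals1 with Anxa2 (0.996) and S100a10 with S100a11 (0.992). The 8 sums come from 2 libraries and most of their spread is between gates, so these values are descriptions with no test.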

How the data were processed

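The authors aligned and counted the reads with Cell Ranger 6.0.2 against mm10, per the labels, and deposited the raw count of UMIs per gene and cell for each library, with no normalization. The deposited cells include some outside the filters of the study, so those were applied: mitochondrial genes under 7.5% of UMIs, and over 500 and under 50000 UMIs, which left out 575 of 5320 cells (10.8%). Doublets were neither called nor removed.

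The 9 genes and all lists were chosen with earlier results of these data known. Genes were named as members, by closest correlation or from the lists. Related genes given with values are some of those with at least 50 CPM in 1 library, over all cells or in a gate. The other related genes were only counted. Gates were cut in the order cycling, effector, memory-like and naive-like, each with a Cd3 UMI. Cycling took UMIs of at least 4 of Mki67, Top2a, Birc5, Cdk1, Ccnb2, Ube2c, Cdca8, Tpx2, Cenpf, Nusap1, Rrm2, Tyms, Mcm5, Pclaf, Tk1 and Hells. Effector took at least 2 UMIs and 3 per 10000 of Gzmb and Prf1 summed. Memory-like took at least 5 Ccl5 UMIs per 10000 and 2 of the 6 memory genes. Naive-like took fewer Ccl5 UMIs and 2 of the 4 naive genes. Near the limits lay 159 lean and 171 obese cells with 3 or 4 cycling genes, 159 and 158 with 2 to 4 Gzmb and Prf1 UMIs per 10000, and 116 and 103 with 3 to 10 Ccl5 UMIs per 10000.

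UMIs were summed per gate and library in Python 3.11.15 (numpy 2.4.6, scipy 1.17.1, pandas 2.3.3) and set over the total UMIs in the gate. CPM carry exact Poisson, shares Clopper-Pearson and log2 ratios exact conditional binomial 95% intervals, which cover counting error only, and nothing between mice. The steps were tested on simulated counts. Backgrounds count genes with at least 20 UMIs in each sum and 50 CPM in 1. Alternatives changed the total, the weight of cells, the depth per cell, the filters and the gates. The removal of cells with markers of other lineages was added after the data were seen. Values of 1 gene in the memory and naive lists are not reported here. Positions come from GENCODE on GRCm38, in which 99.6% of gene identifiers were found.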

Additional observations from a re-analysis of the deposited data

Results flagged for a closer look

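The results below are listed because the same gene was higher in the obese library in 1 gate and lower in another, beyond counting error. Each gate holds 1 library per phenotype, so the difference between gates was not tested. S100a4 had a log2 ratio of obese over lean of 1.14 in memory-like cells, against -0.40 in naive-like and -0.13 in cycling cells. The naive-like S100a4 ratio rests on 130 lean and 117 obese UMIs, of which the top 10 cells carried 73.8% and 70.9%. The lean naive-like level was not read as expression by the gate. S100a6 had 0.62 in memory-like cells, against -0.53 in naive-like, -0.12 in effector and -0.33 in cycling cells. S100a11 had 0.32 in memory-like cells, against -0.12 in effector and -0.16 in cycling cells. Lgals1 had 0.21 in memory-like cells, against -0.49 in naive-like, -0.39 in effector and -0.26 in cycling cells. Anxa1, on 8 and 27 UMIs, had 1.40 in memory-like cells, against -0.48 in effector and -0.94 in cycling cells. Vim had 0.24 in memory-like cells and -0.37 in naive-like cells. Thinned to 2000 UMIs per cell, Lgals1 in memory-like cells was 0.030, and S100a4 and S100a6 in naive-like cells were 0.018 and -0.11. In each of these 6 genes the memory-like gate was the one with the higher obese level. How many of all genes would be listed by the same rule was not counted. The median ratio over all genes measured was also highest in memory-like cells, at 0.077. It was -0.0098 in naive-like, 0.0090 in effector and 0.018 in cycling cells.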

How the results depend on the processing

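No paired analysis was possible because each phenotype is 1 library, and for the same reason no replicate could be left out. Of 67 recomputed medians over the 9 genes, 44 moved by less than the counting interval, 23 moved by more and none changed sign. Over all cells the median log2 ratio of obese over lean was -0.26, and became -0.078 as a mean over cells, -0.090 thinned to 2000 UMIs, -0.30 with all deposited cells and -0.047 with each gate weighted alike. In naive-like cells it was -0.37, and became -0.18 as a mean over cells and -0.17 with gates cut at 2000 UMIs by other limits. It was -0.51 with looser gates, whose lower Ccl5, effector and cycling limits can only take cells out of the naive-like gate. The thinned median could not be had because Anxa1 had no UMI left. In memory-like cells it was 0.29, and became 0.21 with mitochondrial and ribosomal protein genes taken out of the total. It was 0.39 with stricter gates, whose Ccl5 limit takes cells out of this gate while their effector and cycling limits let cells in. In effector cells it was -0.12, and became -0.082 as a mean over cells, -0.20 with stricter gates, -0.26 with gates cut at 2000 UMIs and -0.28 with the effector gate from other genes. In cycling cells it was -0.26, and became -0.20 as a mean over cells, -0.18 thinned and -0.29 with looser gates. Effector over naive-like was 2.90 in lean cells, and became 2.52 with the same genes taken out, 3.49 thinned, 2.60 with gates cut at 2000 UMIs and 3.54 with the effector gate from other genes. In obese cells it was 2.98, and became 2.60 with those genes taken out, 2.70 with gates cut at 2000 UMIs and 3.60 with the effector gate from other genes. Of 603 values for single genes, 24 changed sign, 10 of them among the 501 whose reported interval excluded 0 and 14 among the 102 whose interval included 0. The 10 were as follows. S100a4 over all cells became 0.053 as a mean over cells, 0.037 thinned and 0.075 with gates weighted alike, and in naive-like cells 0.018 thinned. S100a6 in effector cells became 0.048 as a mean over cells. S100a10 in effector cells became -0.019 with looser gates, -0.0016 with gates cut at 2000 UMIs and -0.0058 with the effector gate from other genes. Anxa1 became 0.032 over all cells and 0.39 in effector cells when thinned. The cause was not tested. S100a4 in memory-like cells ranged from 0.90 to 1.26 over 10 alternatives, Lgals3 in effector cells from -1.20 to -0.77 over 10, and Anxa2 in cycling cells from -0.62 to -0.48 over 10.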

Other observations

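The cells outside the gates, which were shallow (median 3434.5 UMIs in lean and 3589 in obese cells), also held these genes. S100a4 was 760 CPM (715 to 807) in 304 lean and 1367 CPM (1308 to 1427) in 263 obese cells of this kind, and S100a6 was 1165 and 1641 CPM. Lgals3 was 119 and 122 CPM, and Anxa2 339 and 290 CPM. The 6 dendritic markers summed to 106 CPM in lean and 728 CPM in obese cells there, and the 7 macrophage and monocyte markers to 195 and 79.5 CPM, and their part in these levels was not tested. The red cell globins had no UMI in the lean library and 9193 UMIs in 29 cells of the obese library. Of these UMIs, 9164 were in 8 cells outside the gates, of which 1 held 5 or more, so 1 cell carried nearly all of them.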
